A study of Rattus norvegicus with 8 samples.

Results

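Genes of the glucocorticoid response were followed in the Achilles tendon of the rat. A list of 10 genes was drawn up by symbol, made of the receptor gene Nr3c1, the hormone-activating enzyme Hsd11b1, the receptor targets Fkbp5, Tsc22d3, Sgk1 and Zbtb16, the forkhead factors Foxo1 and Foxo3, and the leucine zipper factors Cebpd and Cebpb. Of the 15590 genes in the expression table, 9 carried one of these symbols, and Nr3c1 was not analysed here. All 9 passed the filter on low values, as did 13863 genes in all.

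The samples were 4 libraries from male rats of the SD strain killed at once after running uphill on a treadmill for 1 h (0 h p.r., post-run) and 4 from naïve cage controls (NC) that did not run. Per the labels and the methods of the study, the rats were wild type and 8 to 10 weeks old, and runners were urged on by airflow and, when they stepped off the belt, by a mild electric stimulus. In the one-time running experiment described there, the controls were killed together with a later post-run group, and the hour of day of either group was not given in the sources used here. Each library held polyadenylated RNA of right-leg tendon tissue, and its level of each gene was given as FPKM, fragments per kilobase of gene length scaled to the size of the library. Nothing in the labels says more of a replicate than its number, so the p-values measure the spread between these libraries.

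Glucocorticoids are steroid hormones of the adrenal cortex that rise with stress and exertion and follow a daily rhythm. Their receptor waits in the cytoplasm bound to heat shock proteins, moves to the nucleus once it binds hormone, switches on genes with glucocorticoid response elements and holds back inflammatory genes. In tendon, glucocorticoids are known as injected anti-inflammatory drugs and for slowing tenocyte growth and collagen production.

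Running was followed by higher levels of Cebpb, Cebpd and the receptor target Sgk1. The remaining receptor targets, Fkbp5, Tsc22d3 and Zbtb16, had lower means after the run but did not pass the test in either direction. Cebpb stood 2.97-fold and Cebpd 3.45-fold above the controls, and both met the 2 thresholds used here, a 2-fold difference and an adjusted p below 0.05. These 2 of 9 genes compare with 1.8% of all tested genes that passed both thresholds upwards and 2.7% in either direction. Sgk1 was 1.79-fold higher and passed the adjusted p alone, which makes 3 of 9 genes against 3.49% of all tested genes upwards (5.72% in either direction). That count was 2, without Sgk1, with the replicate number as a block, under quantile scaling and in 5 of the 8 fits that left out 1 library. The groups did not overlap for the same 3 genes, against 8.15% of all tested genes that were higher without overlap (15.6% in either direction). None of the 9 passed downwards or lay lower without overlap, where 0.894% of all tested genes passed both thresholds, 2.23% passed the adjusted p and 7.47% did not overlap. The median log2 change was 0.08 over the 9 genes and -0.00142 over all tested genes, with 5 genes above 0 and 4 below.

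**Figure D1:**
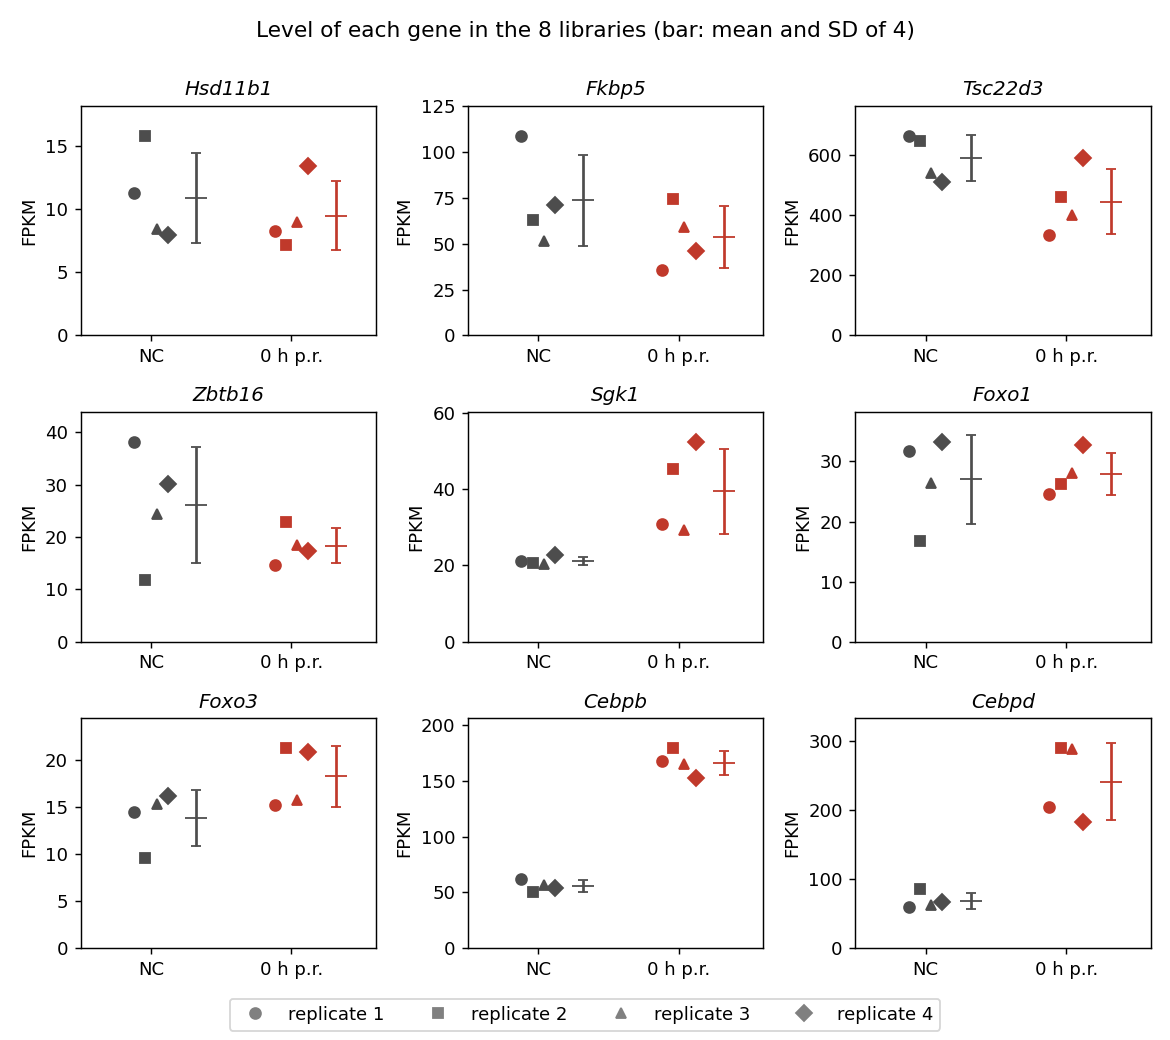
FPKM of 9 genes in each of the 8 libraries (points, shaped by replicate number, NC in grey and 0 h p.r. in red), with the mean and SD of 4 libraries beside them and every axis starting at 0. The groups lie apart for Sgk1, Cebpb and Cebpd and overlap for the other 6 genes, with NC replicate 1 at 109 FPKM for Fkbp5 and 0 h p.r. replicate 4 at 591 FPKM for Tsc22d3.

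To show what the start sites of these genes hold, promoter windows of 300 bases (250 before the start and 50 after it) were read from RefSeq for the build GRCr8 and searched on both strands. The table of windows held 9 for 5 of the genes, namely 3 each for Sgk1 and Tsc22d3 and 1 each for Cebpb, Fkbp5 and Foxo1. The full glucocorticoid response element, made of the half-site AGAACA and its reverse complement with 3 bases between them, occurred in 0 of the 9 windows, as in all but 5 of 33469 windows of all genes (0.0149%), and the half-site by itself in 0 of 9 against 20.7% of all windows. The motif of the cAMP response element, TGACGTCA, occurred in 0 of 9 (1.83% of all), and its half-site TGACG, which also lies within the full motif, in 2 of 9 (21.2%), the windows of Cebpb and of 1 start of Tsc22d3. The latter window also held the forkhead motif TGTTTAC (3.78% of all windows), and 1 Sgk1 window held the AP-1 motif TGANTCA (7.33%). The C/EBP motif TTGCGCAA (0.17% of all), the STAT motif TTCCNGGAA (1.27%) and the E-box CACGTG (6.42%) were in 0 of the 9. Since a match or its lack describes only the letters of these windows, the stretches around the matches nearest upstream of the start are given only as sequence, for the gene with the smallest adjusted p of the 9 and for the gene with the highest level. Capitals mark the TGACG half-sites and the TGTTTAC motif. The Cebpb stretch is chr3:176816878-176816968, plus strand, from 127 to 37 bases before the start, and leaves out a further TGACG on the minus strand, 234 bases before the start. The Tsc22d3 stretch is chrX:109010075-109010216, minus strand, from 182 to 41 bases before the start.
Cebpb: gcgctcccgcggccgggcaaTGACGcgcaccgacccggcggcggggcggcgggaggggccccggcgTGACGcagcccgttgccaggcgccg
Tsc22d3: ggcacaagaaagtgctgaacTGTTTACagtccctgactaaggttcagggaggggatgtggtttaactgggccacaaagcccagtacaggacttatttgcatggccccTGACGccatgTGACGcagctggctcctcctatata

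Depth and the make-up of the tissue differed between libraries. The listed genes held 11350560 to 17897056 reads per library, recovered from the steps of the FPKM values, with the fewest in NC replicate 2, where 13 mitochondrial genes took 31.1% of the FPKM against 16.3% to 21.9% in the other 7. All 11 tenocyte markers were measured in every library, with sums of 8309 to 13647 FPKM in NC and 11384 to 23420 FPKM in 0 h p.r. Adipocyte markers (11 of 11 with the groups apart, 7 past both thresholds) summed to 3272 to 6606 FPKM in NC and to 1126 to 2401 FPKM in 0 h p.r., and none was at 0 in any library. All of these were lower, where 7.47% of all tested genes lay lower without overlap and 0.894% passed both thresholds downwards. Bone markers (8 genes, 3 of them at 0 in some library) summed to 299.7 to 466 FPKM in NC and 553 to 2159.7 FPKM in 0 h p.r., and cartilage markers (6 genes, 1 at 0 in some library) to 10.3 to 96.5 FPKM and 104 to 404 FPKM. In limma 0 of 6 tested bone and 0 of 5 tested cartilage markers passed both thresholds, against 2.7% of all tested genes. At an unadjusted p under 0.05, 5 bone and 4 cartilage markers were higher and none lower, where 1575 of all 13863 tested genes were higher and 1552 lower. By voom 1 bone marker was called higher and 0 cartilage markers were called, where 263 of all tested genes were called higher and 155 lower. By the limma adjusted p alone 1 bone marker passed, Phex (log2 fold change 0.83, adjusted p = 0.0243), with the groups apart, against 3.49% of all tested genes upwards. Phex reached 0.5 FPKM only in the post-run libraries, so it met the filter only through the group where it was higher. Its pass and the gap between the groups are thus not independent of the filter. It had 11, 7, 16 and 21 reads in NC and 51, 57, 42 and 56 in 0 h p.r. Most of the bone sum was Spp1, the secreted matrix protein osteopontin, at 357 ± 86.7 FPKM in NC and 1032 ± 655 FPKM in 0 h p.r. (SD, n = 4, adjusted p = 0.0769). Skeletal muscle markers (10 genes, none at 0) lay between 5006 and 7459 FPKM in NC but ranged from 1017 FPKM in replicate 4 to 32485 FPKM in replicate 1 of 0 h p.r. Of the 10, 7 had log2 changes above 0 and 3 below, with a median of 0.93, and 0 passed both thresholds. The slow-fibre members had lower means after the run, at 445 ± 116 and 104 ± 129 FPKM for Tnnt1, whose groups lay apart (log2 fold change -3.54, unadjusted p = 0.0197, adjusted p = 0.133), and at 230 ± 121 and 54.3 ± 72.8 FPKM for Myh7, whose groups overlapped (-3.42, unadjusted p = 0.0305, adjusted p = 0.169). Sums of macrophage, endothelial and Schwann cell markers overlapped between the groups, as did those of the few neutrophil and erythroid markers measured. By the limma adjusted p alone 1 of 6 tested endothelial markers passed, Egfl7 (log2 fold change 0.75, adjusted p = 0.0270). It was higher with the groups apart, while the log2 values of the other 5 were below 0. No macrophage or Schwann cell marker passed. Of the neutrophil markers 2 were tested, and S100a9 was higher (log2 fold change 1.23, adjusted p = 0.0192) and Mpo lower (-1.45, adjusted p = 0.0146) after the run. The S100a9 value rests on few reads, 7, 1, 2 and 2 in NC and 12, 15, 11 and 10 in 0 h p.r. In such bulk tissue, fewer cells of a type and less RNA per cell cannot be told apart.

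**Figure D2:**
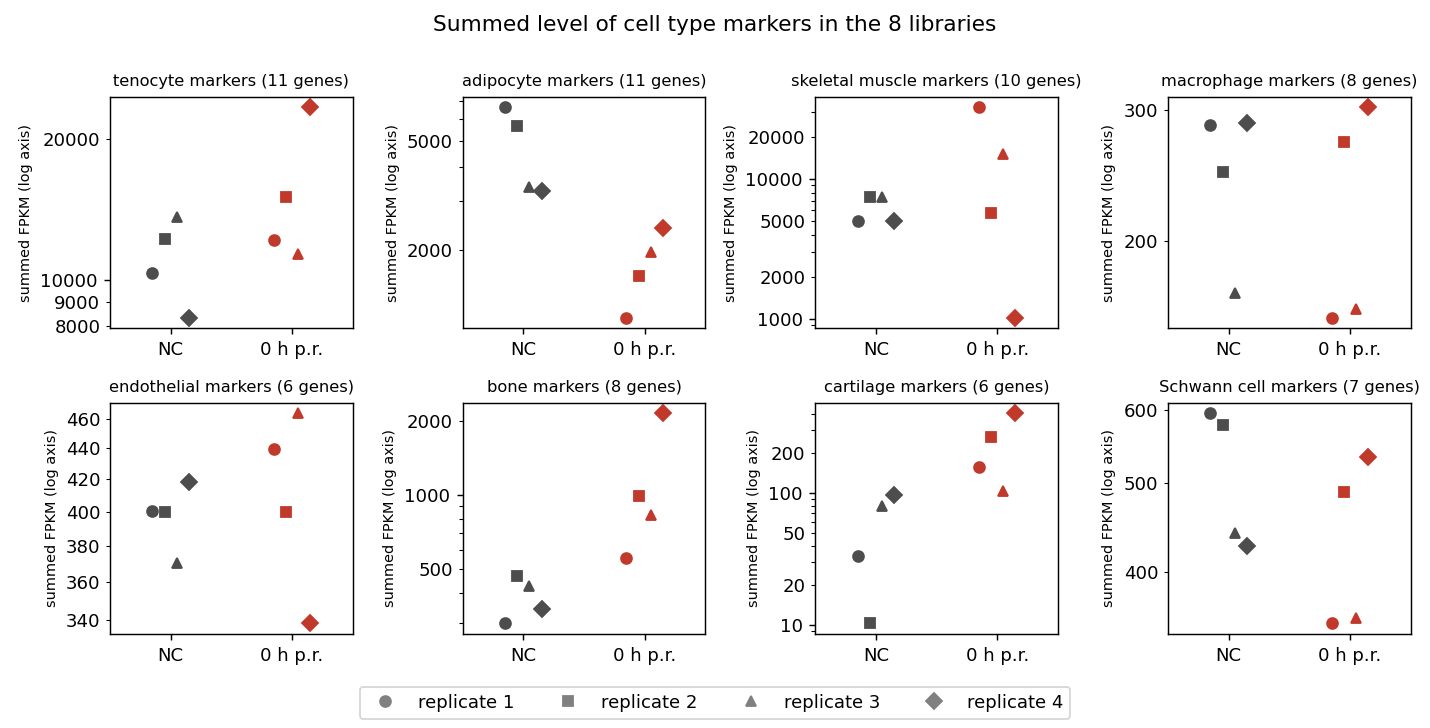
Summed FPKM (log axes) of marker genes of 8 cell types in the 4 NC (grey) and 4 0 h p.r. libraries (red), 1 point per library, shaped by replicate number. Adipocyte sums lie lower in 0 h p.r. (1126 to 2401 FPKM against 3272 to 6606), bone and cartilage sums lie higher, and the muscle sums of 0 h p.r. spread from 1017 to 32485 FPKM.

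Levels, which FPKM gives per gene length, fell into a wide order in the resting tendon. Tsc22d3 stood highest at 591 ± 76.1 FPKM (SD, n = 4) and had no overlap with the next gene, Fkbp5, which lay 8.02 times lower. Fkbp5, Cebpd and Cebpb followed with ranges that overlapped from 1 to the next, and Cebpb lay above Foxo1 with no overlap. Foxo1, Zbtb16 and Sgk1 overlapped in turn, while the lowest Sgk1 library (20.3 FPKM) lay above the highest Foxo3 library (16.1 FPKM). Foxo3 and Hsd11b1 closed the order with overlapping ranges. After the run Tsc22d3 still led, but Cebpd now came next and Cebpb after it, each apart from its neighbours in the order, and beneath them Fkbp5 overlapped Sgk1 and Sgk1 overlapped Foxo1, while Fkbp5 and Foxo1 lay apart. Zbtb16 and Foxo3 overlapped next, and Hsd11b1 came last, apart from Foxo3.

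The supply of active hormone inside the cells was considered first. Hsd11b1 (ENSRNOG00000005861) encodes the enzyme that turns inactive keto steroid back into corticosterone, the main glucocorticoid of the rat. Its level was 11.2, 15.8, 8.43 and 7.98 FPKM in NC replicates 1 to 4 and 8.29, 7.18, 8.98 and 13.4 FPKM in 0 h p.r. replicates 1 to 4. The groups overlapped, with 1 high library in each, replicate 2 of NC and replicate 4 of 0 h p.r. The mean went from 10.9 ± 3.59 to 9.46 ± 2.73 FPKM (SD, n = 4), which is a log2 fold change of -0.18 (SE 0.25, 95% confidence interval -0.74 to 0.38) with a limma adjusted p of 0.743. Without NC replicate 2 the log2 value was 0.015 (adjusted p = 0.975), of the opposite sign. Hsd11b2, the opposing enzyme that inactivates corticosterone, was near the lower end of detection with 2 to 40 reads per library, and the mean of the controls was 0.728 ± 0.338 FPKM and that of the post-run libraries 0.337 ± 0.291 FPKM (log2 fold change -0.58, adjusted p = 0.265). The size of that value depended on the setting, at -1.08 with a pseudocount of 0.1, -0.38 with a pseudocount of 1 and -1.32 by voom on recovered reads (adjusted p = 0.253, 0.280 and 0.223).

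Genes around hormone supply and the sister receptors gave no call. Of 9 such genes 6 were listed and 5 tested, and 0 passed both thresholds in limma, against 2.7% of all tested genes. Of the 5, 1 was lower and none higher at an unadjusted p under 0.05, where 1552 of all 13863 tested genes were lower and 1575 higher. By limma's voom on recovered reads 0 of the 5 were called. Their median log2 change was -0.12. Nr3c2, the mineralocorticoid receptor, which binds corticosterone as well, was at 4.15, 1.84, 4.09 and 3.91 FPKM in NC and 4.69, 5.03, 4.92 and 3.89 FPKM in 0 h p.r. NC replicate 2 stood alone at the bottom, and the log2 fold change was 0.41 (adjusted p = 0.343) with it and 0.17 (adjusted p = 0.416) without it.

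Fkbp5 (ENSRNOG00000022523) encodes a co-chaperone that binds the receptor complex, lowers its affinity for hormone and is itself induced by the receptor. In NC replicates 1 to 4 it was at 109, 63.2, 51.8 and 71.0 FPKM, and in 0 h p.r. replicates 1 to 4 at 35.7, 74.3, 58.9 and 45.9 FPKM. NC replicate 1 stood far above the rest, 2 post-run libraries lay below every control, and replicate 2 of 0 h p.r. lay above 3 of the controls. The mean of the controls was 73.7 ± 24.8 FPKM and that of the post-run libraries 53.7 ± 16.7 FPKM (SD, n = 4), with a log2 fold change of -0.45 (SE 0.27, 95% confidence interval -1.07 to 0.17, limma adjusted p = 0.379). Leaving out NC replicate 1 moved it to -0.25 (adjusted p = 0.686), and leaving out 0 h p.r. replicate 1 moved it to -0.27 (adjusted p = 0.640). It went the other way without 0 h p.r. replicate 2 (-0.62, adjusted p = 0.282) and without NC replicate 3 (-0.60, adjusted p = 0.279).

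Among the other chaperones and the coregulators of the receptor, 1 of 19 tested genes passed both thresholds, upwards, against 1.8% of all tested genes. The median log2 change was 0.14 with 16 genes above 0 and 3 below. The gene that passed was Dnajb1, the Hsp40 partner that loads clients such as this receptor onto Hsp70. It went from 28.6 ± 2.36 to 93.8 ± 15.8 FPKM (SD, n = 4), with a log2 fold change of 1.69 and an adjusted p of 0.000532, and all 4 post-run libraries lay above all controls. Hsp90aa1, the inducible Hsp90, had its highest value in replicate 3 of 0 h p.r. (77.4 FPKM) while the other 3 post-run libraries (15.8 to 22.4 FPKM) lay among the controls (6.72 to 23.2 FPKM), for a log2 fold change of 0.87 with an adjusted p of 0.381. Fkbp4, the co-chaperone that takes the place of Fkbp5 in the receptor complex once hormone binds, had a log2 value of 0.05 (adjusted p = 0.917) that turned to -0.08 under quantile scaling.

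Tsc22d3 (ENSRNOG00000056135), known as GILZ, encodes a leucine zipper protein through which glucocorticoids dampen inflammatory transcription factors. Its level was 665, 646, 541 and 512 FPKM in NC and 333, 459.7, 399.9 and 591 FPKM in 0 h p.r., in replicate order. Of the post-run libraries 3 lay below every control and replicate 4 lay inside the control range, so the groups overlapped. The mean of the controls was 591 ± 76.1 FPKM and that of the post-run libraries 446 ± 109.6 FPKM (SD, n = 4), and the log2 fold change was -0.43 (SE 0.21, 95% confidence interval -0.90 to 0.04, limma adjusted p = 0.262). Over the fits that left out 1 library the log2 value ran from -0.57 (adjusted p = 0.106, without 0 h p.r. replicate 4) to -0.30 (adjusted p = 0.482, without 0 h p.r. replicate 1).

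Zbtb16 (ENSRNOG00000029980), also called PLZF, is a zinc finger repressor that rises sharply in many cells given glucocorticoid. It was measured at 38.2, 11.8, 24.5 and 30.1 FPKM in NC and at 14.7, 22.8, 18.4 and 17.4 FPKM in 0 h p.r. The controls were widely spread, with a coefficient of variation of 42.3% that exceeded that of 88.0% of tested genes, and all post-run libraries lay within their range. The mean of the controls was 26.2 ± 11.1 FPKM and that of the post-run libraries 18.3 ± 3.38 FPKM (SD, n = 4), for a log2 fold change of -0.40 (SE 0.32, 95% confidence interval -1.12 to 0.32, limma adjusted p = 0.517). The value moved with single controls, to -0.73 (adjusted p = 0.0686) without the lowest one, replicate 2, and to -0.18 (adjusted p = 0.819) without NC replicate 1.

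The upper limits of the 95% intervals put bounds on any rise of these 3 targets, at 1.12-fold for Fkbp5, 1.03-fold for Tsc22d3 and 1.246-fold for Zbtb16. The lower limits allowed falls to 0.477, 0.537 and 0.461 of the control level. In all 3 genes 0 h p.r. replicate 1 was the lowest post-run library, and it was also the library with the lowest adipocyte sum (1126 FPKM) and the highest muscle sum (32485 FPKM). NC replicate 1 was the highest control in all 3 genes and had the highest adipocyte sum (6606 FPKM). The adipocyte sums of the groups lay apart, lower after the run like these means. The part of fat or muscle RNA in these values was not tested beyond a fit with the muscle markers as a covariate, which gave log2 values of -0.46, -0.43 and -0.40 and adjusted p-values of 0.320, 0.134 and 0.482.

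Sgk1 (ENSRNOG00000011815), the serum and glucocorticoid regulated kinase, acts on ion transport and cell survival and responds to serum, osmotic and growth factor signals besides the hormone. NC libraries held 21.2, 20.6, 20.3 and 22.8 FPKM, and 0 h p.r. libraries held 30.8, 45.3, 29.4 and 52.4 FPKM. Every post-run library lay above every control, with replicates 2 and 4 well above replicates 1 and 3. The mean rose from 21.2 ± 1.12 to 39.5 ± 11.2 FPKM (SD, n = 4), which is a log2 fold change of 0.84 (SE 0.19, 95% confidence interval 0.41 to 1.26) with a limma adjusted p of 0.0373. Its fold of 1.79 stayed under 2, and single libraries were 1.39 to 2.47 times the control mean. The coefficient of variation was 5.29% among controls, lower than that of all but 4.1% of tested genes, and 28.4% after the run. This call was near the threshold. The adjusted p was 0.0997, 0.067, 0.0868 and 0.068 without NC replicates 1 to 4 in turn, 0.114 without 0 h p.r. replicate 2, 0.0662 under quantile scaling and 0.0731 with the replicate block, with log2 values from 0.69 to 0.96 over all 8 fits that left out 1 library.

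**Figure D3:**
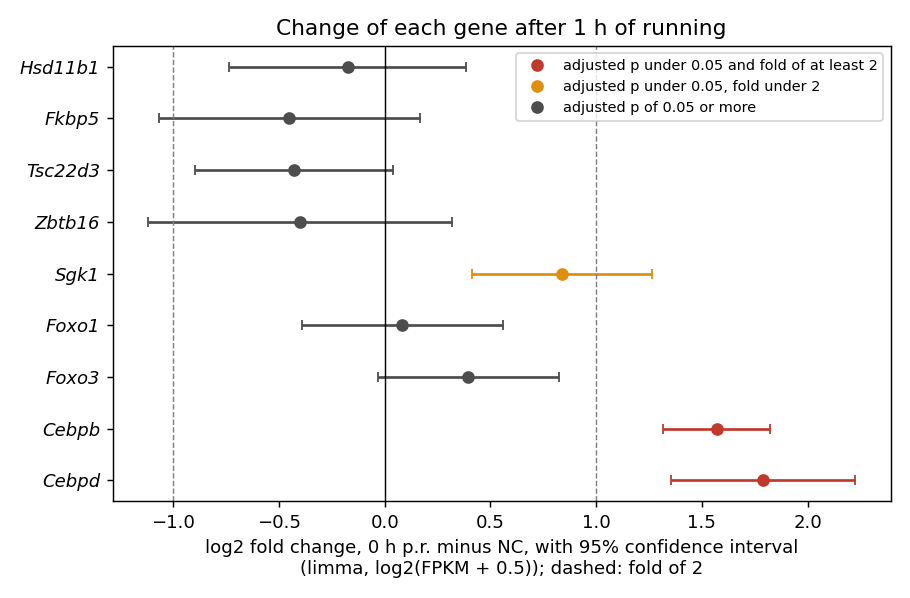
Log2 fold change (0 h p.r. minus NC, limma on log2(FPKM + 0.5)) of the 9 genes, with 95% confidence intervals as bars and dashed lines at a fold of 2. Cebpb (1.57) and Cebpd (1.79) lie beyond the line, Sgk1 (0.84) lies between 0 and the line with its interval above 0, and the intervals of the other 6 genes include 0.

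A wider list of genes that glucocorticoid induces in many tissues held calls in both directions. Of 35 tested, 6 passed both thresholds upwards and 1 downwards, against 1.8% and 0.894% of all tested genes. The median log2 change was 0.13, with 20 genes above 0 and 15 below. By the adjusted p alone the counts were 7 and 2, against 3.49% and 2.23% of all tested genes. This added Nedd9 (log2 fold change 0.84) and Cavin2 (-0.62), both named after their values were seen. With 1 library left out Nedd9 missed 0.05 in 3 of 8 fits (adjusted p of up to 0.0752) and Cavin2 in 7 of 8 (up to 0.113). Each also missed it under 1 of the 9 other settings (0.0823 and 0.0952). Mt1 and Mt2A, metallothioneins that bind zinc and copper and are close copies whose reads may be shared, rose from 11.7 ± 6.77 to 44.7 ± 12.5 FPKM and from 243 ± 130.3 to 647 ± 180.5 FPKM (SD, n = 4), with log2 fold changes of 1.98 (adjusted p = 0.0138) and 1.503 (adjusted p = 0.0440). Dusp1, the phosphatase that switches off p38 and JNK kinases, rose from 119 ± 24.0 to 355 ± 114 FPKM, a log2 fold change of 1.52 (adjusted p = 0.0156). Sult1a1, a sulfotransferase, fell from 215 ± 72.1 to 78.3 ± 21.5 FPKM, a log2 fold change of -1.43 (adjusted p = 0.0183). Adipocyte sums lay apart in the same direction, and their part in the lower values of Sult1a1 and Cavin2 was not tested. Per1, a clock gene with a response element for the receptor, was at 25.8 ± 6.44 FPKM in NC and 38.0 ± 3.76 FPKM in 0 h p.r., and although the groups did not overlap its log2 fold change of 0.58 had an adjusted p of 0.115. Klf9, a zinc finger target of the receptor, stood at 67.5 ± 8.36 and 66.9 ± 12.2 FPKM with a log2 value of -0.02 (adjusted p = 0.958, 95% confidence interval -0.37 to 0.33), whose sign changed in 4 of the 8 fits that left out 1 library, and NC replicate 2 (55.1 FPKM) lay well below the other controls.

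The calls of this list depended on single libraries. Their number was 2 without NC replicate 1, 4 without NC replicate 3, 1 without 0 h p.r. replicate 2, and 4 without 0 h p.r. replicate 1 or 3, and at most 9, without 0 h p.r. replicate 4. Without replicate 2 of 0 h p.r. the adjusted p was 0.0520 for Mt1, 0.130 for Mt2A, 0.0597 for Dusp1 and 0.0646 for Sult1a1. Leaving out NC replicate 1 gave 0.116 for Mt2A, 0.0563 for Dusp1 and 0.0618 for Sult1a1. Mt2A also missed 0.05 without NC replicate 3 or 4 and without 0 h p.r. replicate 1 or 3 (0.0641 to 0.118), and Sult1a1 without 0 h p.r. replicate 1 or 3 (0.0511 and 0.0605).

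Foxo1 and Foxo3 are forkhead factors of fasting and atrophy programmes, which the receptor can induce and which insulin signalling, partly through Sgk1, keeps out of the nucleus. Foxo1 (ENSRNOG00000013397) was at 31.7, 16.8, 26.4 and 33.2 FPKM in NC and 24.5, 26.3, 28.1 and 32.7 FPKM in 0 h p.r. NC replicate 2 was the lowest library, and all post-run values lay inside the control range. The mean was 27.03 ± 7.45 and 27.9 ± 3.53 FPKM (SD, n = 4), and the log2 fold change of 0.08 (95% confidence interval -0.39 to 0.56, limma adjusted p = 0.871) became -0.13 without NC replicate 2 and -0.015 under quantile scaling.

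Foxo3 (ENSRNOG00000000299) was at 14.4, 9.53, 15.3 and 16.1 FPKM in NC and at 15.1, 21.2, 15.8 and 20.8 FPKM in 0 h p.r. Replicates 2 and 4 of 0 h p.r. lay above every control and the other two lay within the control range. The mean of the controls was 13.8 ± 2.95 FPKM and that of the post-run libraries 18.2 ± 3.22 FPKM (SD, n = 4), and the log2 fold change was 0.40 (95% confidence interval -0.03 to 0.82, limma adjusted p = 0.259), or 0.23 (adjusted p = 0.356) without NC replicate 2. With 0.5 FPKM added to both genes, Foxo1 exceeded Foxo3 in every library, by 1.70 to 2.16 times in NC and by 1.23 to 1.76 times in 0 h p.r. The log2 difference between the paralogs was 0.31 smaller after the run (-0.31), with p = 0.0857 in an exact two-sided permutation test over 70 assignments of the libraries (adjusted over 2 pairs, 0.171). The test can give no p below 0.0286, which it gave once, without 0 h p.r. replicate 3 (-0.38).

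Of 18 FoxO targets tested, 1 passed both thresholds upwards and 1 downwards, against 1.8% and 0.894% of all tested genes. The median log2 change was -0.05, with 6 genes above 0 and 12 below. By the adjusted p alone 2 passed upwards and 3 downwards, where 3.49% and 2.23% of all tested genes did. The groups lay apart for the same 5 genes, against 8.15% of all tested genes upwards and 7.47% downwards. Irs2, an insulin receptor adaptor that is also on the list of glucocorticoid-induced genes, rose by 1.27 on the log2 scale, from 8.53 ± 2.43 to 20.9 ± 3.31 FPKM (SD, n = 4, adjusted p = 0.0126). Tnfsf10, the death ligand TRAIL, fell from 28.6 ± 5.57 to 13.4 ± 3.44 FPKM, a log2 fold change of -1.08 with an adjusted p of 0.0204. That p was 0.0696, 0.0664 and 0.0655 without NC replicate 1, 0 h p.r. replicate 2 and 0 h p.r. replicate 3. With the replicate block the adjusted p of Tnfsf10 was 0.0634, and without NC replicate 2 its fold was under 2. The other 3, named after their values were seen, were under a fold of 2. Sod2, the mitochondrial superoxide dismutase, rose from 49.9 ± 2.21 to 92.8 ± 17.7 FPKM (log2 fold change 0.87, adjusted p = 0.0132). Cat, the peroxide-degrading enzyme catalase, fell from 89.4 ± 18.5 to 44.5 ± 5.76 FPKM (-0.99, adjusted p = 0.0115), and Txnip, an inhibitor of thioredoxin, from 705 ± 107 to 403 ± 31.3 FPKM (-0.80, adjusted p = 0.0304). Sod2 and Cat stayed below 0.05 in all 8 leave-one-out fits, whereas Txnip missed it in 5 of them (0.0553 to 0.109), and with the replicate block the adjusted p was 0.0511, 0.0634 and 0.132 for Sod2, Cat and Txnip. Counts past both thresholds in the list were 1 without NC replicate 1 or 2 or 0 h p.r. replicate 2 or 3, and 4 without 0 h p.r. replicate 4. The count was also 1 with the replicate block. Adipocyte sums lay lower after the run with the groups apart, and their part in the lower values of this list was not tested.

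Cebpb and Cebpd encode leucine zipper factors that come on early in acute phase responses and fat cell formation, and that both glucocorticoid and inflammatory cytokines induce. Cebpb (ENSRNOG00000057347) was at 61.9, 49.9, 56.9 and 54.3 FPKM in NC replicates 1 to 4 and at 168, 179, 165 and 153 FPKM in 0 h p.r. replicates 1 to 4. The lowest post-run library was far above the highest control, and within each group the libraries lay close together, with coefficients of variation of 9.0% and 6.45%. Its mean rose from 55.7 ± 5.02 to 166 ± 10.7 FPKM (SD, n = 4), which is a log2 fold change of 1.57 (SE 0.11, 95% confidence interval 1.32 to 1.82) with a limma adjusted p of 0.000299. Single post-run libraries were 2.74 to 3.21 times the control mean.

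Cebpd (ENSRNOG00000050869) was at 59.1, 85.2, 62.6 and 67.3 FPKM in NC and at 204, 289, 289 and 182 FPKM in 0 h p.r. Again the groups lay apart, with replicates 2 and 3 of 0 h p.r. above replicates 1 and 4. The mean rose from 68.5 ± 11.6 to 241 ± 56.1 FPKM (SD, n = 4), which is a log2 fold change of 1.79 (SE 0.19, 95% confidence interval 1.35 to 2.22) with a limma adjusted p of 0.00205. Over the 8 fits that left out 1 library, the log2 value stayed between 1.52 and 1.62 for Cebpb and between 1.69 and 1.91 for Cebpd, with adjusted p-values of at most 0.00306 and 0.0105. Neither gene lost its call under any of the 9 other settings tried.

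Whether the paralogs moved by different amounts was tested within libraries. The log2 ratio of Cebpd to Cebpb averaged 0.29 ± 0.35 over the NC libraries and 0.50 ± 0.28 over the 0 h p.r. libraries (SD, n = 4), a difference of 0.22 with p = 0.343 in the exact two-sided permutation test (adjusted over 2 pairs, 0.343). No difference between their rises was detected. Adipocyte sums were 1126 to 2401 FPKM after the run and 3272 to 6606 FPKM in NC. Bone and cartilage sums lay higher after the run, as did Cebpb, Cebpd and Sgk1, with none of the tested bone or cartilage markers past both thresholds in limma. The bone marker Phex passed the adjusted p alone, upwards, but met the filter only through the post-run libraries. The library with the highest bone sum (2159.7 FPKM) and cartilage sum (404 FPKM), 0 h p.r. replicate 4, held the lowest post-run values of Cebpb and Cebpd and the highest of Sgk1, and the part of fat, bone or cartilage RNA in these values was not tested.

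Other relatives and partners of the 9 genes gave 0 calls of 14 tested in limma, against 2.7% of all tested genes. Of the 14, 1 was higher and 1 lower at an unadjusted p under 0.05, where 1575 of all 13863 tested genes were higher and 1552 lower. None of the 14 was called by voom, and the median log2 change was 0.17. Cebpa, the C/EBP factor of mature fat and liver cells, was at 74.0, 35.8, 41.9 and 31.2 FPKM in NC and 8.24, 17.6, 11.03 and 28.6 FPKM in 0 h p.r. All post-run libraries lay below all controls, yet with a log2 fold change of -1.53 (95% confidence interval -2.40 to -0.65) the adjusted p was 0.0538. It was 0.016 without 0 h p.r. replicate 4 and 0.0722 to 0.142 without any other single library, 0.0184 with array weights, 0.00597 with the muscle covariate and 0.145 with the replicate block. The adipocyte sums lay apart in the same direction, and their part in the Cebpa values was not tested. Ddit3, the stress-induced C/EBP partner CHOP, was at 31.7 ± 3.17 FPKM in NC and 38.1 ± 4.81 FPKM in 0 h p.r. (log2 fold change 0.26, adjusted p = 0.258).

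Inflammatory and matrix genes that glucocorticoid holds back had the highest median among the pathway and clock lists. Of 13 tested, 7 passed both thresholds upwards and 0 downwards in limma, against 1.8% and 0.894% of all tested genes. None of the 13 was lower at an unadjusted p under 0.05, where 1552 of all 13863 tested genes were. None was lower by voom either, and the median log2 change was 1.07. The 7 were the cytokine, chemokine and adhesion genes Il6, Il1b, Ccl2, Ccl7, Cxcl1, Cxcl2 and Icam1, some of them named after their values were seen. The matrix genes Col1a1, Col3a1 and Mmp3 had log2 values of 0.05, 0.03 and -0.38 (adjusted p = 0.958, 0.952 and 0.614). Mmp13, also on the list, missed the filter and was not tested. It was at 0.273 ± 0.198 FPKM in NC and 1.01 ± 0.834 FPKM in 0 h p.r. (SD, n = 4), with the groups overlapping. The study names several genes of this list from these samples, so the count is not independent evidence of a direction. Il6 and Cxcl2 reached 0.5 FPKM in no NC library and met the filter only through the post-run libraries. Their direction was thus largely set by the filter, and both are in the count and the median. Il6 was at 0.161, 0, 0.326 and 0.0643 FPKM in NC, from 0 to 5 reads per library, and at 35.1, 36.9, 42.8 and 10.4 FPKM in 0 h p.r. Its log2 fold change of 5.49 (adjusted p = 0.00036) depended on the pseudocount and other settings, over which it ran from 4.67 to 7.66. The chemokine genes Ccl7, Ccl2 and Cxcl1, which draw in monocytes and neutrophils, rose by log2 values of 3.64 (adjusted p = 0.000299), 3.33 (adjusted p = 0.00294) and 3.31 (adjusted p = 0.000886).

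**Figure D4:**
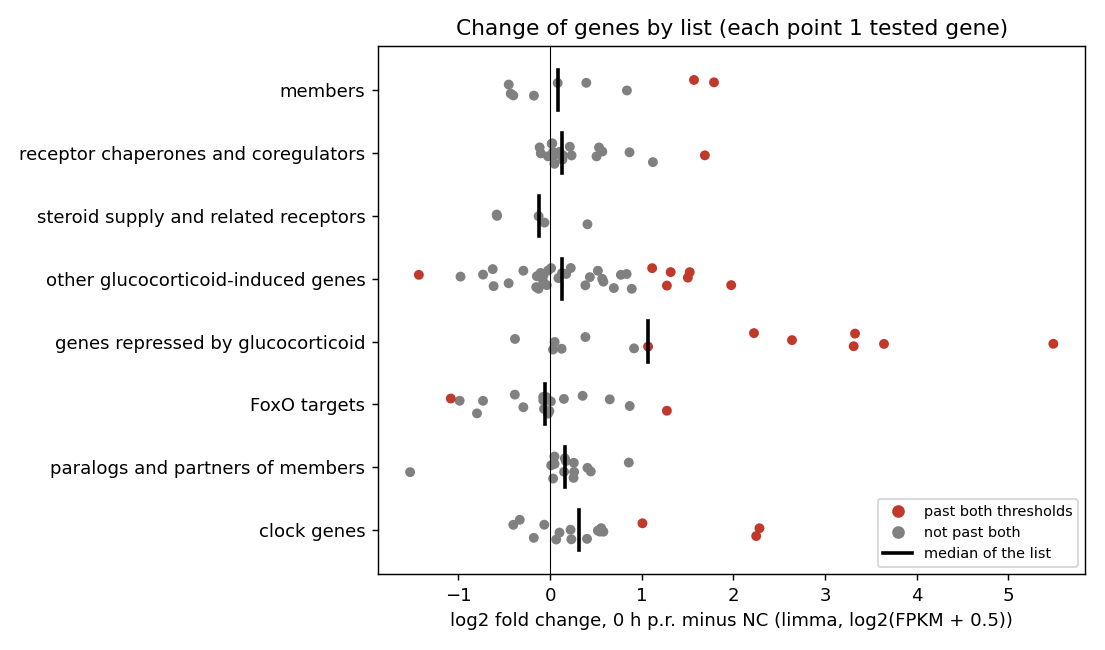
Log2 fold change (0 h p.r. minus NC, limma on log2(FPKM + 0.5)) of every tested gene of 8 lists, 1 point per gene, in red where it passed both thresholds, with the median of each list as a bar. The 9 genes of the opening list are in the row named members. The list of genes repressed by glucocorticoid has 7 of 13 genes in red and a median of 1.07, and the medians of the other lists lie between -0.12 and 0.32. In that list Il6 and Cxcl2 met the filter only through the post-run libraries.

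Clock genes were read beside these lists, since glucocorticoid and the clock share targets and the hours of killing were not known. Controls of the one-time running experiment were killed with a later post-run group, not with the 0 h p.r. rats. The part of the hour of day in these values was not tested. Of 16 tested, 3 passed both thresholds, all upwards, against 1.8% of all tested genes upwards. The median log2 change was 0.32. Bhlhe40, a repressor of the clock that also answers hypoxia and cytokines, rose from 24.9 ± 7.49 to 116 ± 12.6 FPKM (SD, n = 4), which is a log2 fold change of 2.25 with an adjusted p of 0.000947. Ciart rose by 2.28 (adjusted p = 0.0415) and Bhlhe41 by 1.01 (adjusted p = 0.0229) on the log2 scale. Ciart kept its call in just 1 of the 8 leave-one-out fits, without 0 h p.r. replicate 4 (adjusted p = 0.00226), and had 0.0631 to 0.119 in the others, and 0.120 by voom. For Bhlhe41 the adjusted p was 0.06 and 0.0544 without NC replicates 3 and 4, and 0.0603, 0.068 and 0.0681 without 0 h p.r. replicates 1 to 3. Without NC replicate 2 its adjusted p was 0.0468 but its log2 value of 0.93 was under a fold of 2. Counts for the list were 1 without NC replicate 2, 3 or 4 and 1 without 0 h p.r. replicate 1, 2 or 3. The count was 2 with a pseudocount of 1, under quantile scaling and with the replicate block.

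Counting error differed between the genes. The fewest reads of any of the 9 genes in a library were 272, for Foxo3 in NC replicate 2, which corresponds to a counting error of 6.06%, while Tsc22d3 had at least 8587 reads (1.08%). The coefficients of variation between libraries ran from 5.29% to 42.3% in NC and from 6.45% to 31.0% in 0 h p.r. For Sgk1 in NC the spread of 5.29% was close to the counting error of 3.66% at its fewest reads. Within NC, replicate 2 held the lowest value of 4 of the 9 genes and the highest of 2, and replicate 1 held the highest of 4. Within 0 h p.r., replicate 1 held the lowest of 5, replicate 2 the highest of 5 and replicate 4 the highest of 4.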

How the data were processed

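Polyadenylated RNA of 8 tendon libraries was read from 1 deposited table. The authors aligned reads to the rat genome build Rnor_6.0 with HISAT2 2.1.0, counted them per gene with featureCounts 1.6.3 and normalised with DESeq2 1.30.1, and the deposited values are FPKM, which in the table were also scaled between libraries. The table's columns of the authors' own log2 fold changes and p-values were not used, and it holds no gene positions. Groups and replicate numbers came from the sample titles.

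Whole reads were recovered from the steps of the FPKM values for 15590 of 15590 genes (100.0%, within 0.02 reads), 11350560 to 17897056 per library. Within-group libraries differed beyond sampling noise (chi-square per gene of at least 30.5). Intervals and counting errors cover counting only where so named.

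Genes that reached 0.5 FPKM in 4 or more of the 8 libraries (13863, with 1727 left out) were compared on log2(FPKM + 0.5) with limma 3.58.1 in R 4.3.3 (eBayes with a trend, two-sided), with Benjamini-Hochberg adjustment over all tested genes. The thresholds were a 2-fold difference together with an adjusted p below 0.05. Folds come from this scale, which understates those of low genes. The scripts were tested on simulated data. Paralogs were compared by exact permutation tests on differences of log2(FPKM + 0.5) in Python 3.11.15.

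The members and the gene lists were chosen with earlier results of these data known. All members were named, with up to the 4 largest changes past both thresholds in each pathway list and the clock genes, and Per1, Klf9, Dusp1, Hsp90aa1, Fkbp4, Nr3c2, Hsd11b2, Cebpa and Ddit3 in any case. Alternatives were pseudocounts of 0.1 and 1, all genes unfiltered, a minimum mean of 2 FPKM, quantile scaling, a block for the replicate number, limma's array weights, the muscle markers as a covariate, limma's voom on the recovered reads, and leaving out each library in turn. Promoter windows are RefSeq's for GRCr8. Strand handling in the counting was not given in the sources used here.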

Additional observations from a re-analysis of the deposited data

Results flagged for a closer look

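In 62 sets of 4 libraries (31 named genes in either group), the lowest or highest library was compared with the nearest of the others on the log2(FPKM + 0.5) scale, and in 4 sets the gap took up more of the whole range than Dixon's 95% critical value allows. Chance alone flags about 1 in 20 such sets. Klf9 was at 55.1 FPKM in NC replicate 2 and at 70.4 to 73.1 FPKM in the other NC libraries. Nr3c2 was at 1.84 FPKM in NC replicate 2 and at 3.91 to 4.15 FPKM in the others. Dnajb1 was at 117 FPKM in 0 h p.r. replicate 4 and at 83.9 to 87.8 FPKM in the others. Il6 was at 10.4 FPKM in 0 h p.r. replicate 4 and at 35.1 to 42.8 FPKM in the others. NC replicate 2 was the library with the fewest recovered reads and the largest mitochondrial share (31.1%), and 0 h p.r. replicate 4 the one with the lowest muscle sum (1017 FPKM). With the muscle markers as a covariate the log2 fold change was 1.69 for Dnajb1 (adjusted p = 0.000385) and 5.501 for Il6 (adjusted p = 0.000163), and without NC replicate 2 it was -0.12 for Klf9 (adjusted p = 0.651) and 0.17 for Nr3c2 (adjusted p = 0.416). On the FPKM scale, a choice made after seeing the data, 6 sets passed, 3 of them the same (Klf9, Nr3c2 and Dnajb1), while Il6 did not (a gap of 0.764 of the range) and Hsp90aa1 in 0 h p.r. (0.893), Mt1 in NC (0.838) and Hsd11b2 in NC (0.833) did. None of the 9 glucocorticoid genes passed on either scale.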

How the results depend on the processing

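Cebpb and Cebpd passed both thresholds under all 9 alternatives and in all 8 fits that left out 1 library, where the number of the 9 genes past both was 2 to 2 and past the adjusted p alone 2 to 3. Correlations of deviations between libraries of the same replicate number were -0.141, -0.0708, 0.0717 and 0.00562, and those between unlike numbers ran from -0.249 to 0.234. Whether the replicate numbers pair the libraries was not tested. With the replicate number as a block, calls over all tested genes went from 374 to 212, in the list of glucocorticoid-induced genes from 7 to 3 and in FoxO targets from 2 to 1, and the adjusted p was 0.0731 for Sgk1, 0.0742 for Mt2A, 0.0565 for Sult1a1, 0.0634 for Tnfsf10 and 0.0962 for Ciart. Leaving out each library in turn gave 195 to 516 calls over all tested genes, 1 to 9 for glucocorticoid-induced genes, 6 to 7 for repressed genes, 1 to 4 for FoxO targets, 0 to 1 for relatives and partners, 1 to 3 for clock genes, 1 to 1 for chaperones and 0 to 0 for steroid supply, and differences of 0.10 to 0.38 for Cebpd minus Cebpb and -0.38 to -0.21 for Foxo1 minus Foxo3. Signs reversed in genes near 0. Foxo1 had -0.0147 under quantile scaling and -0.107 with array weights, and ran from -0.125 to 0.197 when a library was left out, with the negative value without NC replicate 2. Hsd11b1 ran from -0.348 to 0.015 in the same fits, positive without NC replicate 2. Klf9 ran from -0.137 to 0.0602, positive in 4 of 8. Fkbp4 had -0.0843 under quantile scaling and -0.00816 with array weights, and ran from -0.0663 to 0.149, negative in 4 of 8. Cebpa had adjusted p-values of 0.0184 with array weights, 0.00597 with the muscle covariate and 0.145 with the replicate block. The causes of these moves were not tested. Precision is limited by 4 libraries a group.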
